A study of Mus musculus with 15 samples.

Results

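The ectonucleotidases described here are 8 of the 43432 genes in the count table. They are Enpp1, Enpp2, Enpp3, Enpp4 and Enpp5 of the Enpp family, the NAD-cleaving enzymes Cd38 and Bst1, and the 5'-nucleotidase Nt5e. Membership of the group was by name, but Enpp1 and Cd38 were selected on measured values, namely their rise with ligands of the retinoic acid receptor (RAR). Their levels with those ligands are therefore given as a description with no test, also where such groups are compared with one another. Of the other 6 genes, Bst1 did not pass the filter on low counts that left 16736 genes, and the remaining 5 carry the tests. Enpp1 and Cd38 are tested only in the treatment without an RAR ligand, against the vehicle, a comparison that shares libraries with their choice.

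RNA was sequenced from 266-6, a mouse pancreatic acinar tumour line grown as a monolayer. All cultures spent 24 h in stripped medium and then 24 h with a ligand or the vehicle DMSO. The 15 libraries form 5 groups of 3: DMSO, AM580 (an agonist of RARα), CD3254 (an agonist of the retinoid X receptor, RXR), AM580 and CD3254 together (the joint treatment), and 9-cis retinoic acid, which binds both receptors. Ligand doses are not given in the labels, and all groups are the same line, with no genetic change named. Nothing says that the replicates are separate cultures, so each p-value reflects the scatter of these libraries alone, part of which may be technical.

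Ectonucleotidases sit on the cell surface or are secreted, and break down nucleotides outside the cell. Enpp1 and Enpp3 cleave ATP to AMP and pyrophosphate, Nt5e turns AMP into adenosine, and Cd38 and Bst1 split NAD and form cyclic ADP-ribose. In the exocrine pancreas, extracellular nucleotides act on purinergic receptors, and cyclic ADP-ribose is one of the messengers that release stored calcium in acinar cells. Cd38 is a well known retinoic acid response gene of myeloid cells.

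In 14 libraries, 28501170 to 46801058 reads were assigned to genes. The third 9-cis retinoic acid library was shallower, with 14600962. Of its reads, 63.0% were not assigned to a gene, against 18.1% to 28.5% elsewhere. On the first principal component of all genes, 5 libraries lay apart from the remaining 10, a split the labels do not give. They were replicate 2 of the joint treatment and replicate 1 of each other group. All 12 of a list of oxygen-responsive genes were higher in these 5 libraries with no overlap, with a summed level of 4450 to 5250 counts scaled to a common library total (CPM) against 451 to 654 in the 10. The split was drawn from the expression of all genes, and the share of all genes without overlap was not counted. Because of this split, models were fitted without and with a term for it, called here the library set term. Of 16 acinar markers, 13 had a mean level of at least 1 CPM, led by Ctrb1 at 5210 CPM, while Amy2b, Pnlip and Prss1 lay below 1 CPM. Cyp26b1, a known RAR target that checks the ligand labels, had 0.307 ± 0.315 CPM in DMSO (SD, n = 3), 3.84 ± 2.65 with AM580, 2.41 ± 1.96 with CD3254, 71.8 ± 48.3 with the joint treatment and 9.24 ± 6.80 with 9-cis retinoic acid. Dhrs3, also a check, had 3.8 ± 1.34 CPM in DMSO, 23.3 ± 15.1 with AM580 and 5.91 ± 4.28 with CD3254. For Rarb these were 0.332 ± 0.112, 1.96 ± 0.581 and 0.389 ± 0.237 CPM. With CD3254 the libraries of Dhrs3 and Rarb overlapped DMSO.

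The members lie in 3 neighbouring pairs and 2 single loci (GENCODE M21 on GRCm38). Enpp1 (ENSMUSG00000037370; chr10:24637914-24712159, minus strand) and Enpp3 (ENSMUSG00000019989; chr10:24772406-24842823, minus strand) are 60.2 kb apart. Bst1 (ENSMUSG00000029082; chr5:43818885-43843986, plus strand) and Cd38 (ENSMUSG00000029084; chr5:43868553-43912375, plus strand) are separated by 24.6 kb, and Enpp5 (ENSMUSG00000023960; chr17:44078813-44086567, plus strand) and Enpp4 (ENSMUSG00000023961; chr17:44096308-44105809, minus strand) by 9.74 kb. The annotation places 0 genes between the 2 members of each pair. Enpp2 (ENSMUSG00000022425) is at chr15:54838901-54952892 on the minus strand and Nt5e (ENSMUSG00000032420) at chr9:88327197-88372092 on the plus strand. Bst1 overlaps Fbxl5 on the opposite strand, which had 788 to 3906 reads per library. An antisense gene within Cd38, Gm16015, had 10 reads over all libraries.

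RAR and RXR bind as a pair to repeats of a 6-base element, so the RefSeq promoter windows were searched on both strands for AGGTCA or one of its variants AGTTCA or GGTTCA or GGGTCA. Windows of the 250 bases before the start were available for 5 members (GRCm38.p6). The Enpp1 window, at chr10:24712160-24712409 on the minus strand, is shown because Enpp1 is one of the members chosen for its rise. It holds none of the 4 hexamers, so no letters are in capitals.

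Enpp1: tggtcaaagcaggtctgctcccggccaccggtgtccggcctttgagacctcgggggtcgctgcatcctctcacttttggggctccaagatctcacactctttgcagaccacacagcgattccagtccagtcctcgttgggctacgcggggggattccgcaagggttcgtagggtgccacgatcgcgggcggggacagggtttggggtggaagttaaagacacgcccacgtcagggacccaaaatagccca

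Among the 5 windows, only that of Enpp4 held a hexamer, the reverse complement of GGTTCA (capitals) at chr17:44106038-44106043, 234 bases before the start.

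Enpp4: gttaaaTGAACCaatggg

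At least 1 of the hexamers occurs in 38.6% of the 32851 RefSeq windows of this length, and 2 in direct repeat with a spacing of 1, 2 or 5 bases in 0.426%. No member window held such a repeat. The windows of Enpp1 and Enpp4 lie before the annotated gene (GENCODE), while the 3 of Cd38, Nt5e and Enpp3, drawn from RefSeq's starts, lie inside it. These matches describe letters in a short window and give no information on binding.

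Enpp1 makes pyrophosphate from ATP and also degrades the immune messenger cGAMP. Its level was 19.2, 19.4 and 20.6 CPM in the DMSO libraries (in the order of replicates 1, 2 and 3, here and below). With AM580 it was 33.0, 40.2 and 41.6 CPM, with 9-cis retinoic acid 37.2, 37.3 and 48.9 CPM, and with the joint treatment 52.5, 53.2 and 58.4 CPM. Every library with one of these ligands was above every DMSO library, and the joint libraries were all above the AM580 and the 9-cis retinoic acid libraries. CD3254 gave 26.0, 25 and 24.3 CPM, a narrow band above DMSO and below all libraries of the other 3 treatments. In bulk RNA, a change in the share of cells that express a gene and a change in RNA per cell cannot be told apart.

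The fitted increases of Enpp1 over DMSO, as a description, were 1.94-fold with AM580 (log2 0.96 ± 0.15 SE), 2.08-fold with 9-cis retinoic acid (log2 1.06 ± 0.16) and 2.77-fold with the joint treatment (log2 1.47 ± 0.16). They moved by at most 0.01 on the log2 scale with the library set term. Above the DMSO mean of 19.7 ± 0.729 CPM (SD, n = 3), AM580 added 18.6 CPM, CD3254 5.37 CPM and the joint treatment 35.0 CPM, against 24.0 CPM for the sum of the single additions. The joint addition and that sum were 34 and 20.7 CPM in the 5-library set, and 35.4 and 25.6 CPM in the 10-library set. These additions have no error and use values that chose Enpp1, so nothing is concluded from them. On the log2 scale the interaction of the 2 agonists was 0.17 ± 0.22, with an interval from -0.30 to 0.63 that includes 0. Log2 changes over DMSO in the 10-library set alone were 1.03, 1.10 and 1.47 for AM580, 9-cis retinoic acid and the joint treatment. In the 5-library set, 1 library a group, the same differences were 0.78, 0.95 and 1.47.

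Cd38, the main NAD-consuming enzyme of the cell surface in many tissues, was the scarcer of the chosen pair per kb of exon. In DMSO it had 1.09, 1.30 and 0.653 CPM, from 43, 43 and 26 reads. AM580 libraries had 2.64, 5.14 and 6.77 CPM, 9-cis retinoic acid libraries 2.66, 5.34 and 3.51 CPM, and joint libraries 7.15, 5.12 and 5.52 CPM. All 9 lay above all DMSO libraries, but these 3 ligand groups overlapped one another. CD3254 gave 2.28, 2.84 and 2.77 CPM, also wholly above DMSO. The lowest Cd38 value in each of the 4 ligand groups was the library of the 5-library set.

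As a description, Cd38 was 4.79-fold above DMSO with AM580 (log2 2.26 ± 0.40), 3.79-fold with 9-cis retinoic acid (log2 1.92 ± 0.39) and 5.85-fold with the joint treatment (log2 2.55 ± 0.40). Within the 10-library set the log2 changes were 2.62, 2.23 and 2.71, and in the 5-library set 1.28, 1.29 and 2.23, in the same order. Over the DMSO mean of 1.01 ± 0.329 CPM (SD, n = 3), AM580 added 3.84 CPM, CD3254 1.62 CPM and the joint treatment 4.92 CPM, beside a sum of 5.45 CPM for the single additions. Which was higher turned between the sets, with a joint addition of 4.03 against a sum of 2.74 CPM in the 5-library set and 5.36 against 6.81 CPM in the 10-library set. The log2 interaction was -1.09 ± 0.54 without (interval -2.24 to 0.07) and -1.02 ± 0.43 with the library set term (interval -1.93 to -0.10). Its sign was opposite to that of Enpp1, whose interval included 0. Values that chose both genes enter these intervals, so they are a description and are not read as tests. The Cd38 interaction was -0.11 in the 5-library set, from 1 library a group and so with no error, and -1.45 in the 10-library set. Whether it differs between the sets was not tested.

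**Figure D1:**
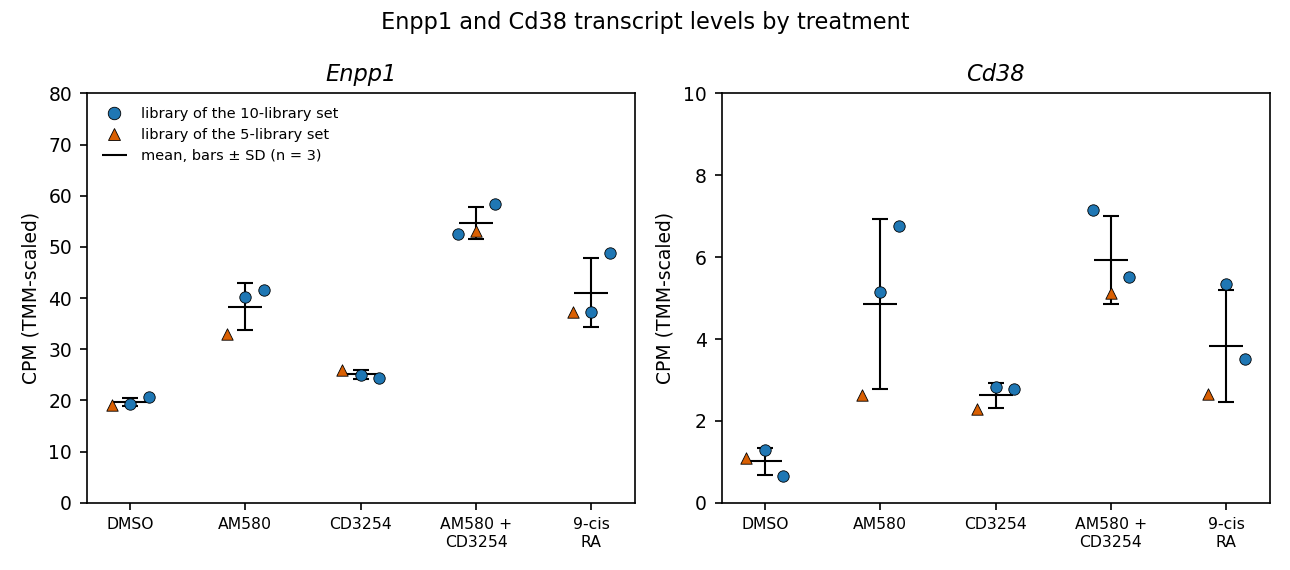
Levels of Enpp1 (left) and Cd38 (right) in CPM scaled by TMM factors, 1 symbol per library, with the mean and SD of the 3 libraries of each treatment on the x axis; triangles are the 5-library set and circles the 10-library set. DMSO libraries lie between 19.2 and 20.6 CPM for Enpp1 and between 0.653 and 1.30 CPM for Cd38, below every library with a ligand.

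The rule that chose these genes names RAR ligands and not CD3254. The DMSO libraries, and possibly those with CD3254, were the low side of that choice. The p-values below are therefore not independent of it, and no conclusion is drawn from them. Enpp1 was 1.27-fold higher (log2 0.35 ± 0.15, interval 0.02 to 0.68) and an edgeR adjusted p of 1. With the library set term the estimate was the same, with an interval from 0.07 to 0.63 and an adjusted p of 1. Cd38 was 2.59-fold higher (log2 1.38 ± 0.39, interval 0.54 to 2.21), with an adjusted p of 1 in edgeR, and 0.994 with the term. DESeq2 with the term gave Cd38 an adjusted p of 0.0444, the only pass of a member in a tested comparison by either tool. Without each library in turn and under the other settings, the edgeR estimate stayed between 1.02 and 1.63. Both genes were higher in 3 of 3 CD3254 libraries, and neither passed in edgeR. Of all genes tested, 0.454% had an unadjusted p under 0.05 in this comparison without the term and 1.98% with it, both genes among them.

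Among the groups with an RAR ligand, values of Enpp1 and Cd38 are again a description, since the levels in these groups chose the genes. From AM580 alone to the joint treatment, the Enpp1 estimate was 1.43-fold higher (log2 0.51 ± 0.15). For Cd38 the same step was log2 0.29 ± 0.37. Its sign turned to -0.01 without replicate 1 of AM580, the lowest of that group.

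From the joint treatment to 9-cis retinoic acid, the Enpp1 estimate differed by log2 -0.41 ± 0.15 and the Cd38 estimate by -0.62 ± 0.38. From AM580 alone to 9-cis retinoic acid, the differences were log2 0.10 ± 0.15 for Enpp1 and -0.34 ± 0.38 for Cd38. The Enpp1 value turned to -0.03 without replicate 3 of 9-cis retinoic acid, the shallow library with the highest Enpp1 level of its group.

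The 4 other Enpp genes did not pass in any comparison. Enpp4, which hydrolyses diadenosine polyphosphates on the cell surface, had 24.9, 23.2 and 26.1 CPM in DMSO. It had 13.2, 26.4 and 27.6 CPM with AM580, 27.3, 29.3 and 27.2 with CD3254, 25.4, 23.6 and 36.3 with the joint treatment, and 23.5, 24.3 and 22.2 with 9-cis retinoic acid. Only the CD3254 libraries stood wholly above DMSO, by a fitted 1.13-fold (log2 0.17 ± 0.25, interval -0.35 to 0.70, adjusted p = 1 in edgeR). Replicate 1 of AM580 was the lowest of all 15 libraries for this gene.

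Enpp2 encodes autotaxin, a secreted enzyme that makes lysophosphatidic acid. It had 1.44, 1.66 and 1.61 CPM in DMSO and between 0.851 (replicate 1 of AM580) and 2.36 CPM (replicate 3 of AM580) across the ligand libraries. Each ligand group overlapped DMSO, and the fitted log2 changes lay between -0.16 and 0.13, with adjusted p = 1 in edgeR for each. Its interval with AM580 ran from -0.67 to 0.90, on 27 to 110 reads per library.

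Enpp3, a nucleotide pyrophosphatase best known from basophils and mast cells, had 3.37, 1.15 and 2.21 CPM in DMSO. The values were 2.55, 2.01 and 1.76 CPM with AM580, 3.61, 1.81 and 1.45 with CD3254, 2.11, 3.08 and 2.35 with the joint treatment, and 4.01, 2.26 and 2.74 with 9-cis retinoic acid. In each of the 5 treatments the highest value was that of the 5-library set. Its largest fitted change over DMSO was log2 0.42 ± 0.43 with 9-cis retinoic acid (interval -0.51 to 1.35, adjusted p = 1 in edgeR), and 0.44 ± 0.26 with the library set term (adjusted p = 0.98).

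Enpp5, a membrane-bound and less studied member of the family, was the most abundant of the 8 per kb of exon and followed the library sets. DMSO libraries had 144, 54.8 and 64.3 CPM, AM580 141, 51.7 and 47.1, CD3254 135, 49.7 and 49.3, joint 52.5, 145 and 56.0, and 9-cis retinoic acid 127, 45.8 and 63.6. The 5-library set ranged from 127 to 145 CPM (median 141) and the 10-library set from 45.8 to 64.3 (median 52.1), with no overlap and a ratio of medians of 2.70. The sets were drawn from the expression of all genes, and the share of all genes without overlap was not counted. The split is therefore not shown to be particular to Enpp5. The library set term cut the SE of the AM580 change from 0.60 to 0.13, and the log2 change was then -0.19 with an interval from -0.48 to 0.10 (adjusted p = 0.808 in edgeR). With the term, the intervals over the 4 ligand treatments ran from -0.50 at the lowest to 0.20 at the highest.

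Nt5e, known as CD73, had 7.70, 10.8 and 6.74 CPM in DMSO, 3.46, 11.2 and 11.3 with AM580, and 6.90, 10.8 and 11.5 with CD3254. It had 10.7, 3.58 and 8.51 CPM with the joint treatment and 5.99, 11.6 and 5.22 with 9-cis retinoic acid. In each treatment the library of the 5-library set was below the mean of the other 2 libraries, the reverse of Enpp5 and Enpp3. The sets overlapped, at 3.46 to 7.70 CPM (median 5.99) against 5.22 to 11.6 (median 10.8). Fitted log2 changes over DMSO lay between -0.15 and 0.21 without and between -0.28 and 0.15 with the term, with adjusted p from 0.93 to 1 in edgeR.

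Bst1, the neighbour and relative of Cd38, had 21 reads in all 15 libraries together, from 0 to 7 per library. It was at 0 in 7 libraries, and a count of 0 allows up to 3 reads, which covers counting error only. Its highest values were 0.149 CPM in replicate 2 of 9-cis retinoic acid and 0.134 CPM in replicate 2 of CD3254, so no ligand group was clear of 0.

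**Figure D2:**
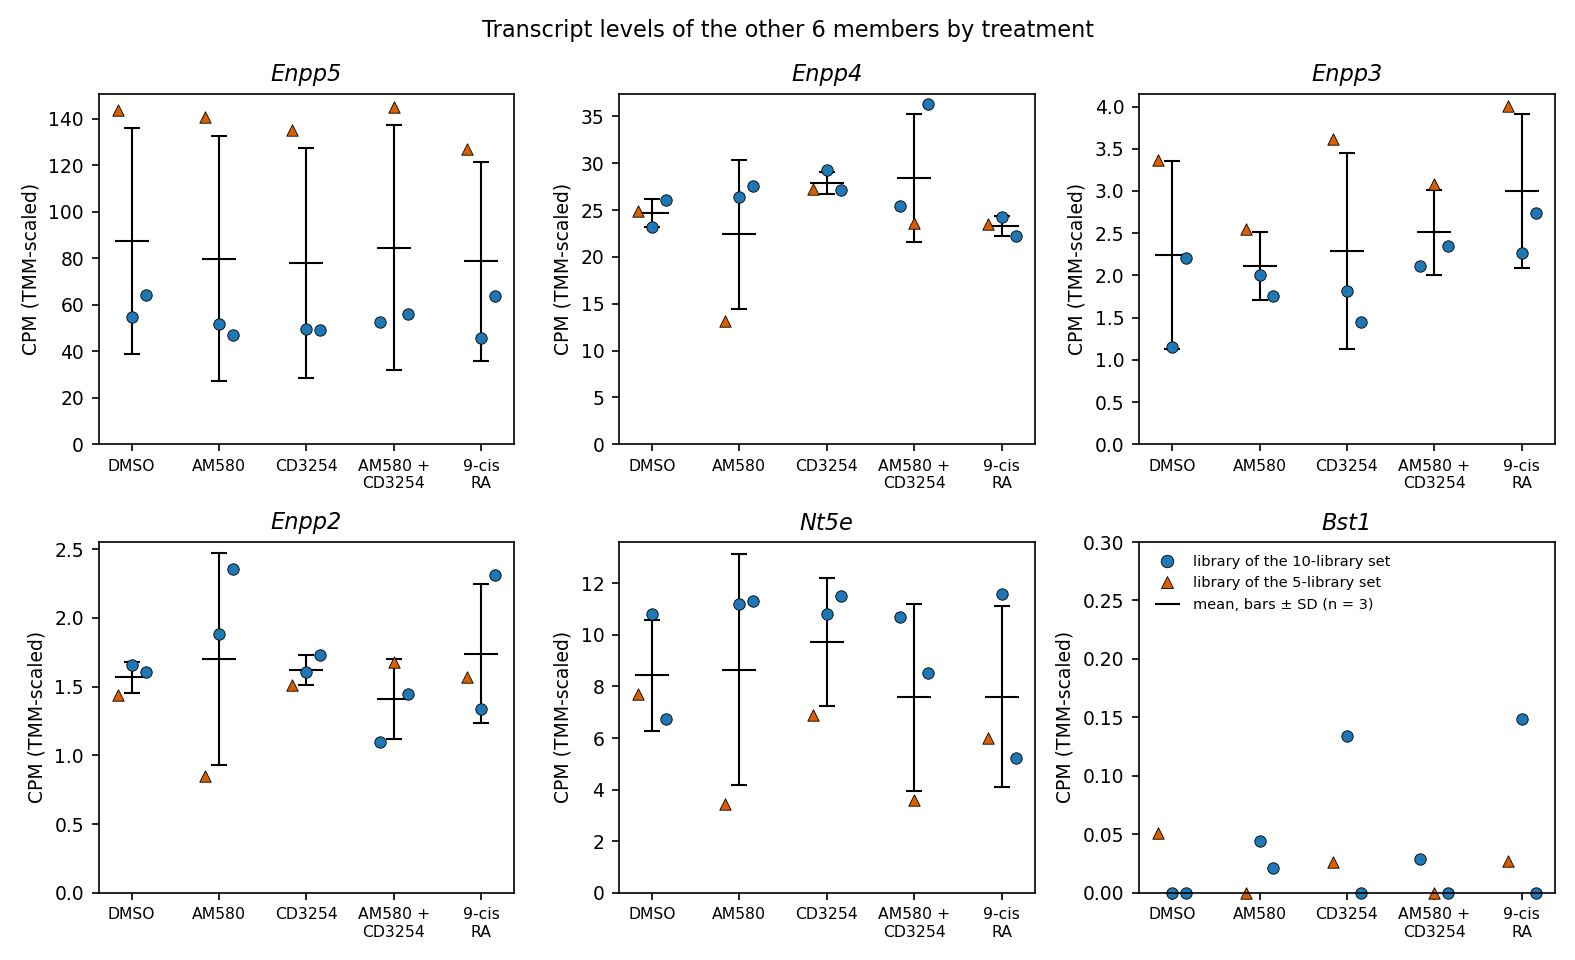
Levels in CPM (TMM-scaled) of the 6 members not chosen on their values, 1 symbol per library, by treatment; lines and bars are the mean and SD of 3 libraries (none for Bst1), triangles the 5-library set and circles the 10-library set. Enpp5 lies between 127 and 145 CPM in the 5 triangles and between 45.8 and 64.3 CPM in the 10 circles, whatever the treatment.

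Counted over the members that passed the filter, all 3 libraries exceeded all DMSO libraries for 2 of 7 with AM580, the joint treatment and 9-cis retinoic acid (Enpp1 and Cd38) and for 3 of 7 with CD3254 (Enpp4 besides). Of all genes tested, 2.19% stood above DMSO in this way with AM580, 2.36% with CD3254, 2.39% with the joint treatment and 2.15% with 9-cis retinoic acid. Since Enpp1 and Cd38 were chosen for this, nothing is read from their part in the count. The median log2 change of the 7 members was 0.17 with CD3254, beside -0.01 over all genes, with Enpp1 (0.35) and Cd38 (1.38) among the 7. Those not chosen on their values ran from -0.17 (Enpp5) to 0.21 (Nt5e), with Enpp2 in the middle at 0.04. The median of the 7 is thus not read as a shift of the group.

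In edgeR at an adjusted p under 0.05, 0 of the 5 members not chosen on values passed in each of the 9 comparisons, without or with the term. At an unadjusted p under 0.05 there were likewise 0 of 5 in each, and DESeq2 called 0. With CD3254 against DMSO, where Enpp1 and Cd38 are counted too, 0 of 7 passed in edgeR. The 2 of 7 with an unadjusted p under 0.05 were Enpp1 and Cd38, whose choice shares libraries with this comparison. In that comparison DESeq2 called 0 without the term and 1 with it, the Cd38 change.

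Few genes of any kind passed. Without the term, the share of the 16736 genes called was 0.0179% for the joint treatment against DMSO and 0% in the other 8 comparisons, where 76 to 243 genes had an unadjusted p under 0.05 and DESeq2 called 0 to 10. With the term it was 0.0299% for AM580, 0.0239% for CD3254, 0.125% for the joint treatment and 0.0299% for 9-cis retinoic acid, each against DMSO. It was 0.012% for the joint treatment against AM580, 0.0299% against CD3254, 0.00598% between 9-cis retinoic acid and the joint treatment, and 0% for 9-cis retinoic acid against AM580 and for the interaction. In those last comparisons 241 and 332 genes had an unadjusted p under 0.05, and DESeq2 called 0 in each.

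**Figure D3:**
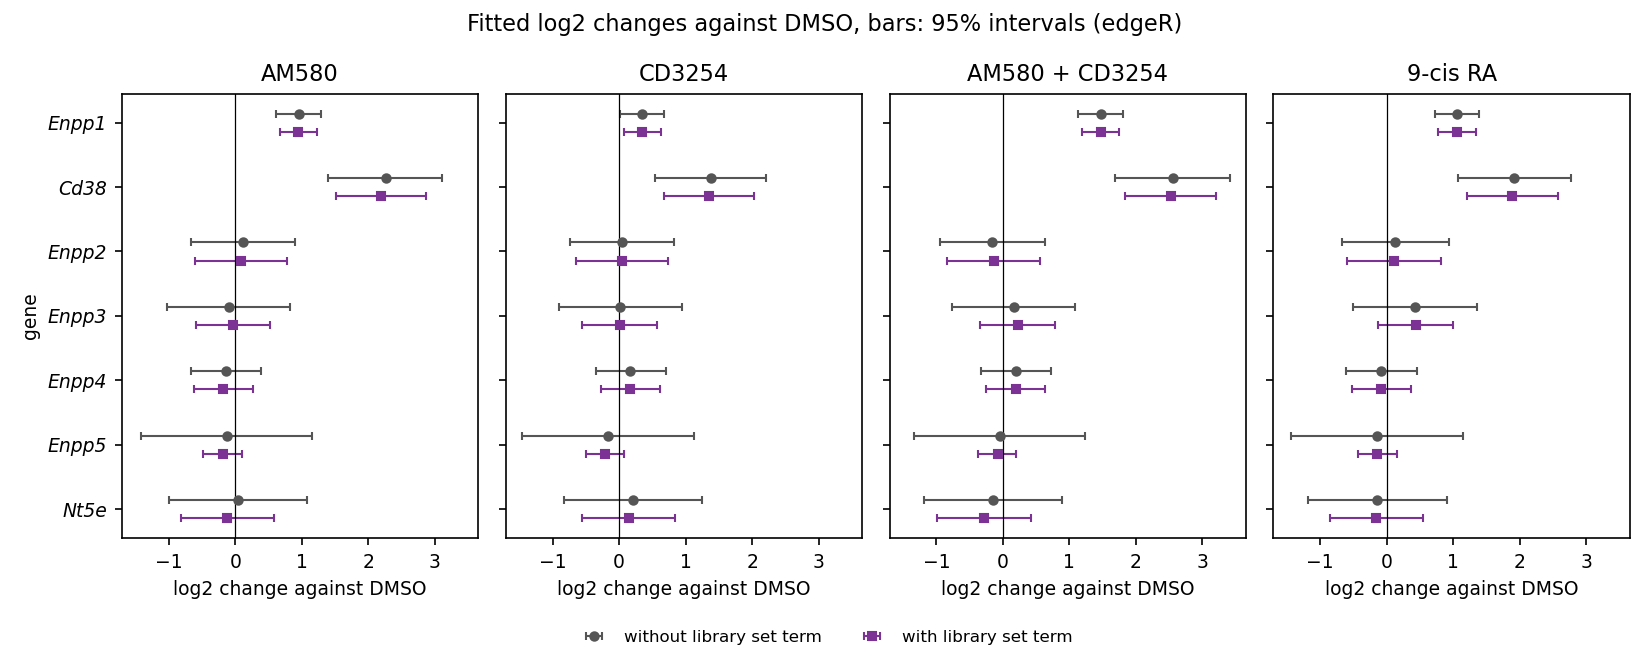
Fitted log2 changes over DMSO (x axis) of the 7 members tested, with bars for 95% intervals, for each ligand treatment; grey circles are fits without and purple squares fits with the library set term. Enpp1 and Cd38, chosen for their rise with RAR ligands, lie to the right of 0 in the 4 panels, at 0.96 and 2.26 with AM580, while the intervals of the other 5 genes include 0.

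To compare levels between genes, CPM was divided by the length of each gene's merged exons. In DMSO the order per kb of exon was Enpp5 (18.0 ± 10.0, SD, n = 3), Enpp4 (5.42 ± 0.328), Enpp1 (1.92 ± 0.0711), Nt5e (0.980 ± 0.249), Enpp3 (0.373 ± 0.185), Enpp2 (0.272 ± 0.0195), Cd38 (0.261 ± 0.0846) and Bst1 (0.00509 ± 0.00882). The library ranges of Enpp3, Enpp2 and Cd38 overlapped, so their order is not resolved, while those of the genes above them did not overlap with their neighbours in DMSO. With the joint treatment Enpp1 had 5.33 ± 0.311 CPM per kb of exon, within the range of Enpp4 (5.19 to 7.95), and Cd38 1.52 ± 0.276, above Nt5e, whose highest library was at 1.24. Both orders depended on the length used. Per kb of the longest transcript, Enpp1 had 8.07 ± 0.47 against 6.24 ± 1.5 for Enpp4, and Cd38 had 1.81 ± 0.329 against 1.90 ± 0.908 for Nt5e, with overlapping libraries in each case.

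**Figure D4:**
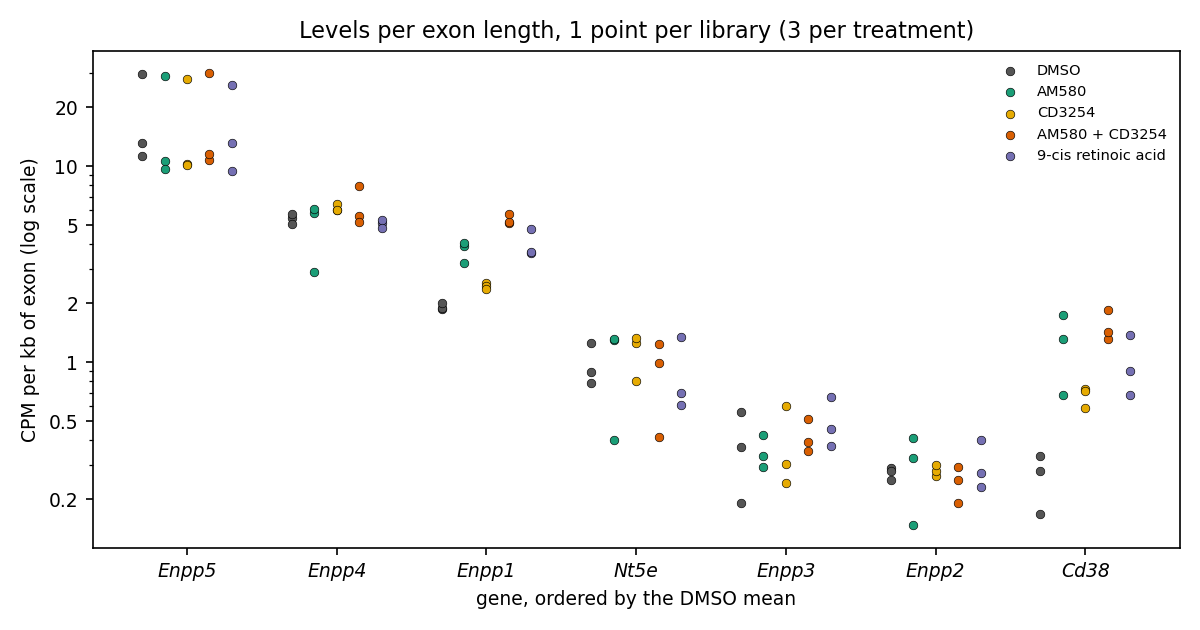
Levels per kb of exon (y axis, log scale, CPM per kb) of 7 members, ordered by their DMSO mean, 1 point per library and 1 colour per treatment; Bst1, at 0 in 7 libraries, is not drawn. Enpp1 moves from 1.92 in DMSO to 5.33 with the joint treatment, and Cd38 from 0.261 to 1.52.

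The library sets are shown for the 3 members whose 5-library value lay on 1 side of the other libraries' mean in every treatment. Single libraries of Nt5e overlapped, as with 7.70 CPM in replicate 1 of DMSO against 6.74 in replicate 3. The share of all genes that lay on 1 side in this way was not counted. Enpp5 and Enpp3 were higher in the 5-library set in 5 of 5 treatments, Enpp3 with medians of 3.37 against 2.06 CPM (ratio 1.64), and Nt5e was lower in 5 of 5. Cd38 had a median of 2.64 CPM in the 5-library set and 4.32 in the 10-library set. The summed level of the oxygen-responsive genes and the level of Cd74 (33.9 to 39.6 against 2.03 to 12.1 CPM) differed between the same sets, and their part in the members' differences was not tested.

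**Figure D5:**
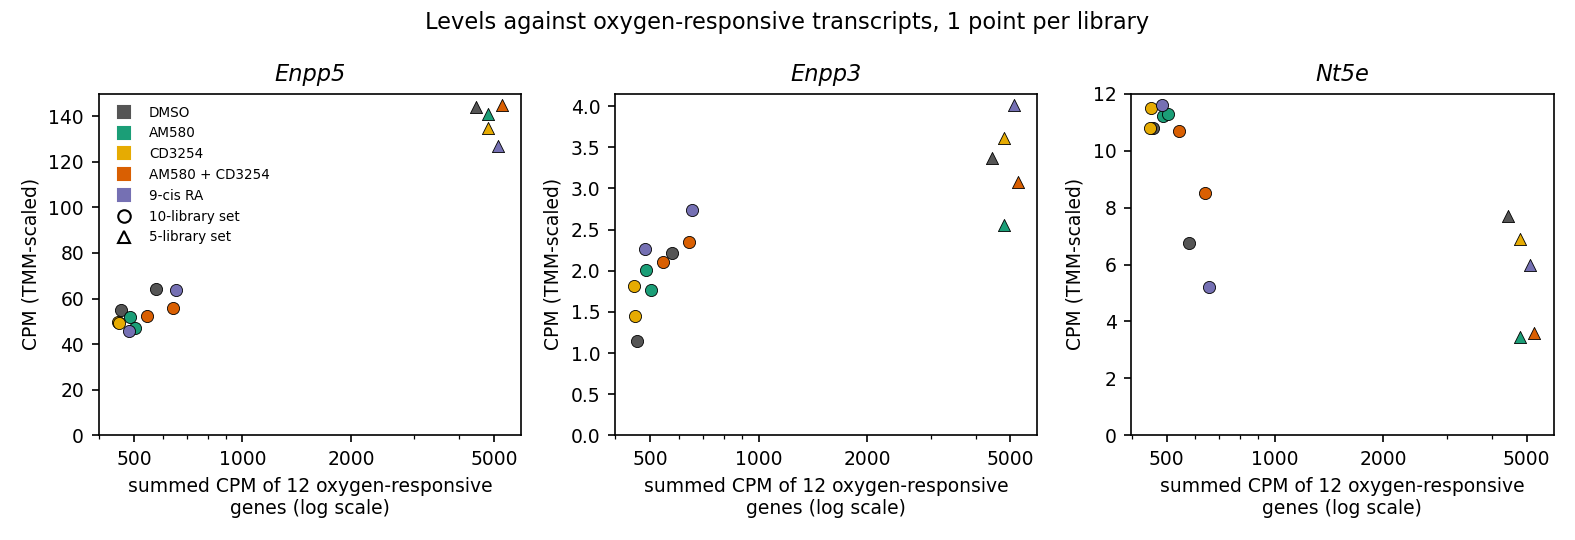
Levels in CPM of Enpp5, Enpp3 and Nt5e (y axes) against the summed CPM of 12 oxygen-responsive genes (x axis, log scale), 1 point per library, coloured by treatment; triangles are the 5-library set and circles the 10-library set. The triangles lie at 4450 to 5250 on the x axis, with Enpp5 at 127 CPM or more, and the circles at 451 to 654.

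Cd38, Bst1 and Enpp3 are also transcripts of immune cells. Of 8 immune markers, Ptprc, the pan-leukocyte antigen, had a mean of 0.0413 CPM, and only Cd74 reached a mean of 1 CPM. The whole list summed to 34.3 to 40.5 CPM in the 5-library set and 2.45 to 13.3 CPM in the 10-library set, and without Cd74 to 0.159 to 1.28 CPM. Endothelial markers summed to 3.14 to 8.89 CPM, with 6.99 to 8.89 in the 5-library set against 3.14 to 5.52 in the 10. Ductal markers, 6 of 8 with a mean of at least 1 CPM, summed to 95.4 to 102 CPM in DMSO, 113 to 127 with AM580, 99.7 to 106 with CD3254, 107 to 115 with the joint treatment and 101 to 124 with 9-cis retinoic acid. Endocrine markers, 2 of 7 at 1 CPM or more, summed to 274 to 333 CPM in DMSO, 334 to 448 with AM580, 243 to 304 with CD3254, 170 to 297 with the joint treatment and 252 to 354 with 9-cis retinoic acid. Nearly all of that sum was Chga (mean 299 CPM), while Ins2, Gcg and Sst had means of at most 0.00381 CPM and Ins1 was at 0 in all libraries. Fibroblast or stellate markers, mostly Pdgfrb (mean 199 CPM), summed to 182 to 374 CPM. The part of the immune, ductal, endocrine and endothelial lists in the members' values was not tested.

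In all, 8 lists of genes that act beside the members held 125 genes, of which 124 were in the table and 94 were tested. In edgeR, 0 of 94 rose and 0 fell in each of the 9 comparisons, without or with the library set term. At an unadjusted p under 0.05 there were 0 to 2 of 94 without the term and 0 to 13 with it, and DESeq2 called 0 in every case. The 13 were in the joint treatment against AM580, where 5.62% of all genes had such a p. With the term and against DMSO, the number was 6 with AM580 (4.21% of all genes), 0 with CD3254 (1.98%), 6 with the joint treatment (4.79%) and 1 with 9-cis retinoic acid (3.97%).

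Among the other ectonucleotidases, 10 of 17 were tested. Their median log2 change over DMSO was 0.18 with AM580, 0.03 with CD3254, 0.02 with the joint treatment and 0.14 with 9-cis retinoic acid, beside 0.02, -0.01, 0.00 and 0.01 over all genes, and 9, 7, 6 and 8 of the 10 were above 0. These comparisons share the DMSO libraries, and the share of all genes above 0 was not counted. With AM580 the medians of the other lists ran from -0.08 (lysophosphatidic acid genes) to 0.17 (adenosine genes). The AM580 value is thus not particular to this list. With the term the medians of the other ectonucleotidases were 0.08, 0.06, 0.02 and 0.17. Entpd5 and Entpd7, nucleoside diphosphatases or triphosphatases of internal membranes, had mean levels of 40.6 and 35.7 CPM. The surface enzyme Entpd1 (CD39), which supplies AMP to Nt5e, had 1.87 CPM. Enpp6 and Enpp7 were at 0 in every library. Of the alkaline phosphatases, Alpl had 11.6 CPM and Alppl2 was at 0.

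For adenosine, the product of Nt5e, 12 of 16 listed genes were tested. The receptor Adora1 had a mean of 159 CPM and the transporter Slc29a1 140 CPM, while Adora2b had 0.769 CPM. Of the receptors for extracellular nucleotides and the ATP release genes, 14 of 21 were tested. P2rx1 had 61.2 to 252 CPM and a median of 82.6 in the 5-library set against 210 in the 10-library set, and P2rx3 had 162 against 59.9. Slc17a9, the vesicular nucleotide transporter, had 18.5 against 4.93 CPM. P2rx1, P2rx3 and Slc17a9 were picked after values were seen, and Panx1 of the same list had 14.4 against 18.1 CPM. The share of all genes with such differences between the sets was not counted.

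For NAD, the substrate of Cd38 and Bst1, 22 of 29 listed genes were tested. Nampt, the rate-limiting enzyme of NAD salvage, had medians of 272 CPM in the 5-library set and 65.4 in the 10-library set. It too was picked after values were seen, and Naprt of the same list had 6.15 against 6.28 CPM. Parp1, another NAD consumer, had a mean of 293 CPM and a range of 263 to 321. In the list for calcium release by cyclic ADP-ribose and related messengers, 14 of 16 genes were tested. The ryanodine receptors Ryr2 and Ryr3 were among those not tested, at 0.0564 and 0.0445 CPM, and Ryr1 had 3.34 CPM. The inositol trisphosphate receptors Itpr2 and Itpr3 had 93.7 and 88.8 CPM, and the lysosomal channel Tpcn1 143 CPM.

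The pyrophosphate list, with the transporter Ank at 152 CPM and the pyrophosphatase Ppa1 at 70.8 CPM, had 9 of 9 genes tested. For cGAMP, another substrate of Enpp1, 5 of 7 listed genes were tested, with Cgas at 5.98 CPM, Irf3 at 54.5 CPM, and Trex1 and Slc46a2 listed at 0 in every library. Of the receptors and phosphatases for lysophosphatidic acid, the product of Enpp2, 8 of 10 were tested, with Lpar2 at 14.8 CPM and Lpar4 at 0.

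Genes with a pattern like that of Enpp1 and Cd38 were ranked by Pearson r of log2 CPM over the 10-library set, 2 libraries of each treatment, among 12104 genes. These libraries share their treatments, so r is a description with no p. For Enpp1 the 5 highest were Itga2 (r = 0.98), Pde7b (0.971), Dhrs3 (0.97), Pitpnc1 (0.943) and Rarb (0.941). Itga2 is an integrin subunit, Dhrs3 reduces retinal and Rarb is a retinoic acid receptor. Dhrs3 and Rarb are known RAR targets. Enpp1 and Cd38 were chosen for their rise with RAR ligands, so likeness to other genes that rise with these ligands is partly built in. Nothing is read from it. For Cd38 they were Sfxn1 (0.964), Inip (0.933), Klf4 (0.921), Nqo2 (0.921) and Fmo5 (0.92). The genes listed for Enpp1 had r from 0.638 to 0.803 with Cd38, those listed for Cd38 had r from 0.866 to 0.92 with Enpp1, and r between Enpp1 and Cd38 was 0.838.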

How the data were processed

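RNA sequencing counts of 15 libraries were analysed. The authors deposited raw read counts per Ensembl gene, with no normalization; the submitters' processing notes name mm10 as the build and HTSeq, HISAT2 2.2.1, FastQC and SAMtools 1.18 as tools. Which annotation release and strand setting were used is not given in the labels, so a read could be counted for an overlapping antisense gene. Of 43432 identifiers 42462 matched a symbol. Reads not assigned to a gene (18.1% to 63.0%) were left out.

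Counts were fitted with edgeR 4.0.16 (limma 3.58.1, R 4.3.3): filterByExpr, TMM scaling and robust quasi-likelihood models over all libraries, 9 two-sided contrasts, Benjamini-Hochberg adjustment over 16736 genes within each contrast, threshold 0.05. The library set term is the sign of the first principal component (log2 CPM, prior count 2). CPM are scaled by TMM, intervals are at 95%, and the SE comes from the F statistic. DESeq2 1.42.0, other filters and scalings, and each library left out were alternatives.

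The members, gene lists and tests were chosen with earlier results of these data known. Comparisons between groups with an RAR ligand, planned as tests of Enpp1 and Cd38 too, are given for these 2 genes as a description. All 8 members are named. List genes were to be named with a change only past an adjusted p of 0.05. Those named with levels were picked after values were seen. The 5 genes most like Enpp1 or Cd38 were taken among genes with a mean of at least 1 CPM. Cyp26b1, Dhrs3 and Rarb served to check the ligand labels. Promoter windows are RefSeq's, matched by symbol for 5 of 8 members. Replicate libraries differed far beyond counting noise, so none was counted as a duplicate.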

Additional observations from a re-analysis of the deposited data

How the results depend on the processing

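Over 9 comparisons there were 198 alternative counts of tested members called, and 197 stayed at 0. The count with CD3254 against DMSO moved to 1 (Cd38) in DESeq2 with the library set term, a setting added after the data were seen. These counts include Enpp1 and Cd38 in comparisons between groups with an RAR ligand, where their values are only a description. The 5 members not chosen on values stayed uncalled in all 990 alternative values, with a lowest adjusted p of 0.288. Of 396 alternative log2 changes of Enpp1 and Cd38, 390 were unchanged. In comparisons planned as a description, this meant the same direction and a move of at most 1 SE. In comparisons planned as tests, it meant the same direction and call. Of the rest, 1 moved by more than its SE (Cd38 with AM580, 1.85 with the term and without DMSO replicate 3), 1 gained the call above and 4 reversed. The Cd38 change from AM580 to the joint treatment was -0.01 without AM580 replicate 1 and up to 0.61 with another library left out. The Enpp1 change from AM580 to 9-cis retinoic acid was -0.03 without replicate 3 of the latter, up to 0.18 with another library left out, -0.02 without it and with the term, and -0.14 with the term and without both that library and AM580 replicate 1. The cause was not tested. Cd38 with CD3254 ranged from 1.02 to 1.63 with the term and 1 or 2 libraries left out, with adjusted p from 0.201 to 1. Counts over all genes depended more on the settings: 3 genes passed with the joint treatment against DMSO, 18 in DESeq2, 21 with the term and 91 in DESeq2 with it. Same-numbered libraries of 2 groups had deviations with r above 0.1 in 20 of 30 pairs (r from -0.68 to 0.81). All 3 pairs were above 0.1 for 4 of 10 pairs of groups (DMSO with AM580, CD3254 or 9-cis retinoic acid, and AM580 with CD3254), and for 0 of the 4 with the joint treatment, whose library of the 5-library set has another number. With the replicate block 0 members were called in each of the 9 comparisons, and over all genes 7 were called with the joint treatment against DMSO and 0 in each other comparison. Per kb of the longest transcript, DMSO levels were 2.91 for Enpp1, 0.508 for Enpp2 and 2.11 for Nt5e, with the same order of genes in DMSO. Cd38 in DMSO rests on 26 to 43 reads per library, and Bst1 on 0 to 2.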
